A study of Mus musculus with 18 samples.

Results

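The genes described here are the 5 subunits of the transcription factor NF-kappaB (*Nfkb1*, *Nfkb2*, *Rela*, *Rel* and *Relb*) and 5 genes of its inhibitors and feedback regulators (*Nfkbia*, *Nfkbie*, *Nfkbiz*, *Bcl3* and *Tnfaip3*). They were chosen by symbol, and all 10 were found among the 20298 genes of the RNA-seq table. Their levels are given in 18 libraries of mouse Ly6C+ CCR2+ monocytes, in 6 groups of 3. Cells came from C57BL/6 mice (C57BL/6J for the DKI line in the study's methods) that were either wild type (WT) or carried a double knockin of mutant *Stat5a* and *Stat5b* (DKI), in which STAT5 still forms dimers but not tetramers. Monocytes were enriched from bone marrow with an isolation kit and left untreated (day 0), or cultured with GM-CSF at 20 ng/mL for 3 or 6 days to give monocyte-derived cells (MDCs). The DKI mutation was present in every cell of the mice and throughout the culture, so that an effect on the monocytes and one during culture share the same groups. The 3 libraries of a group stand for 3 independent experiments, and the labels do not say whether each came from 1 mouse or from pooled mice.

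NF-kappaB acts as a dimer of Rel-homology proteins. *Rela*, *Rel* and *Relb* encode the subunits that carry a transactivation domain, while *Nfkb1* and *Nfkb2* encode the precursors p105 and p100, which are processed to p50 and p52. In resting cells, IkappaB proteins hold the dimers in the cytoplasm until IkappaB kinase marks them for degradation, and several genes of the pathway are known targets of NF-kappaB, which closes feedback loops. In build GRCm38 (mm10) the subunit genes lie at chr3:135584655-135691969 (*Nfkb1*), chr19:46300994-46312400 (*Nfkb2*), chr11:23736847-23770969 (*Rel*), chr19:5637442-5648134 (*Rela*) and chr7:19606217-19629438 (*Relb*). The feedback genes lie at chr12:55489409-55492647 (*Nfkbia*), chr17:45555700-45563169 (*Nfkbie*), chr16:55811375-55838954 (*Nfkbiz*), chr7:19808462-19822824 (*Bcl3*) and chr10:19000910-19015410 (*Tnfaip3*). In dendritic cells the pathway is known for its part in maturation, co-stimulation and migration.

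Letters that match the kappaB consensus, the 10-base motif read by NF-kappaB dimers, were looked for in the RefSeq promoter windows of the genes (build GRCm38.p6, 250 bases before to 50 bases after the transcription start), on both strands. Windows were found for 7 of the 10 genes. *Nfkb1*, *Relb* and *Nfkbiz* had none. The consensus was present in 6 of the 7 genes (*Nfkb2*, *Rel*, *Nfkbia*, *Nfkbie*, *Bcl3* and *Tnfaip3*) and not in *Rela*, while 5.14% of the 27025 genes with a window hold it (4.51% of 32851 windows). The GAS motif of STAT proteins (TTCNNNGAA) was present in 1 of the 7, *Nfkb2*, and in 9.55% of all genes with a window (8.30% of windows). The 250 bases upstream of the start are shown 5′ to 3′ on the strand of the gene for *Rel* and *Nfkbia*, which were called lower in DKI MDCs on day 6. Capitals mark the kappaB matches.
*Rel* (chr11:23770970-23771219, minus strand): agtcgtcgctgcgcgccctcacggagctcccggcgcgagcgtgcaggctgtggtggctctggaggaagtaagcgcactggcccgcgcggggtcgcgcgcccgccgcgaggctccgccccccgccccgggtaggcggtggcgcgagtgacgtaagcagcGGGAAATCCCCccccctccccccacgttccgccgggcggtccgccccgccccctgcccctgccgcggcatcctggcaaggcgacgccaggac
*Nfkbia* (chr12:55492648-55492897, minus strand): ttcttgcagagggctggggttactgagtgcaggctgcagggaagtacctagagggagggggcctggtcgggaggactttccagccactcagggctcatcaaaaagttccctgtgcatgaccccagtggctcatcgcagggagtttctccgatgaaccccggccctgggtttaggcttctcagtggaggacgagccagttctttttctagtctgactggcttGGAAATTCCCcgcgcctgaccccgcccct
The kappaB match of *Rel*, GGGAAATCCC, begins 92 bases before the start and overlaps GGAAATCCCC at -91, and that of *Nfkbia*, GGAAATTCCC, 29 bases before it. *Nfkb2* had 3 windows. In the first, the kappaB matches are GGGAATTCCC at -39, which overlaps GGAATTCCCC at -38, and GGGGCTTTCC at -11, and the GAS match TTCCCCGAA begins 148 bases before the start. In the feedback genes not shown in full, the matches read GGGGGATTCC in *Nfkbie*, GGGAAGTCCC in *Bcl3*, and GGGACACCCC and GGAAATCCCC in *Tnfaip3*. A match of letters is a description of the window and does not show that a factor binds there.

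Levels are RPKM, the reads on a gene divided by its length and by the mapped reads of the library. Depth was between about 29.5 M and 43.2 M mapped reads per library (median 36.4 M), estimated from the smallest values of single-exon genes because the table holds no counts. The labels give liver as the tissue, and of the 5 hepatocyte genes checked, *Alb*, *Ttr*, *Ahsg* and *Serpina1a* were listed at 0 in all libraries and *Apoa1* did not exceed 0.047 RPKM. Monocyte markers were present on day 0 (summed RPKM of 7 genes, 11349 to 17833), and on day 3 their sums were 1531 to 3802 in WT and 8885 to 20946 in DKI MDCs. By day 3 the sums of 8 dendritic cell markers lay between 6286 and 7966 in WT MDCs and between 216 and 953 in DKI MDCs, and those of 8 macrophage markers between 270 and 773 in WT and between 2466 and 6098 in DKI. On day 6 the dendritic cell sums were 3151 to 7691 in WT and 653 to 1024 in DKI, and the macrophage sums 364 to 1755 and 1712 to 7184, and of both lists only *Ccl17* was listed at 0, in DKI day 0 replicates 1 and 2. Sums of 9 neutrophil genes were 1909 to 4819 in monocytes and varied within the MDC groups, where they were highest in WT day 3 replicate 2 (4483, against 189 and 301 in its group) and DKI day 6 replicate 1 (3044, against 25.3 and 256). The names of the libraries of replicate 1 on days 3 and 6 carry another year than those of all other libraries, in both genotypes. In DKI MDCs of day 3 that replicate stood apart with *Ly6c2*, a marker of classical monocytes, at 775 RPKM against 49.5 and 73.8, and with *Ccr2* of the same list at 32.5 against 105.9 and 395, so values with replicates 2 and 3 alone are given with the counts. These libraries are bulk samples, so that fewer cells of a type and less RNA per cell cannot be told apart, and the part of these cell markers in the results below was not tested.

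Before culture, the levels of the 10 genes were close in WT and DKI monocytes. In order of mean level, *Nfkbia* came first in both genotypes (471 RPKM in WT and 453 in DKI), and its libraries did not overlap those of *Tnfaip3*, the next in order. It was followed by *Tnfaip3*, *Nfkb1* and *Nfkbiz*, by *Rel* and *Rela* (in the order *Rela* and *Rel* in DKI; 80.6 to 139 RPKM for these genes), and then by *Nfkb2*, *Nfkbie*, *Bcl3* and *Relb* (26.9 to 63.8). Neighbours in that order overlapped, except *Nfkbie* and *Bcl3* in DKI. In MDCs *Nfkbia* still came first and *Nfkbiz* last, while *Rel* took place 6 in WT on day 3 and 5 on day 6, and place 9 in DKI on both days, where it overlapped the gene just above it. With limma (a linear model on log2(RPKM + 1) over all genes fitted, Benjamini-Hochberg adjustment), 0 of the 10 were called, which required a fold change above 1.5 with an adjusted p under 0.05, and 0 had an unadjusted p under 0.05. The background was 0% of 9179 genes called, and 0.479% had an unadjusted p under 0.05. The DKI minus WT differences lay between -0.11 (*Tnfaip3*, 95% interval -1.21 to 0.98) and 0.05 (*Bcl3*, -0.47 to 0.57). The intervals differed in width, from -0.51 to 0.37 for *Nfkbia* to -1.70 to 1.69 for *Nfkbiz*, and were -1.57 to 1.40 for *Relb*. With a block on the replicate number, the SE went from 0.70 to 0.13 for *Nfkbiz* and from 0.61 to 0.08 for *Relb*, and 0 of the 10 were called.

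The spread within day 0 followed the replicate number. *Relb* was 45.3, 22.4 and 13.9 RPKM in WT replicates 1, 2 and 3 and 47.7, 21.7 and 11.2 in the DKI libraries of the same numbers. *Nfkbiz*, which encodes the nuclear IkappaB-zeta, was 43.9, 59.2 and 164 in WT and 51.1, 44.9 and 183 in DKI. Over the 10 genes, the ratio of DKI to WT within same-numbered libraries stayed between 0.704 and 1.27, whereas the highest library of a genotype exceeded the lowest by up to 3.73 times in WT and 4.28 times in DKI. The library with the highest level had the same number in both genotypes for each of the 10 genes, number 1 for the 5 subunits and *Nfkbie*, 2 for *Bcl3*, and 3 for *Nfkbia*, *Nfkbiz* and *Tnfaip3*. Over 10417 genes, the deviations of same-numbered day 0 libraries from their group means correlated between 0.687 and 0.868, so moving together was not particular to these 10 genes. Because libraries with the same number in WT and DKI moved together on each day, values from a fit that blocks on this number stand beside each difference between the genotypes whose call it changes.

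**Figure D1:**
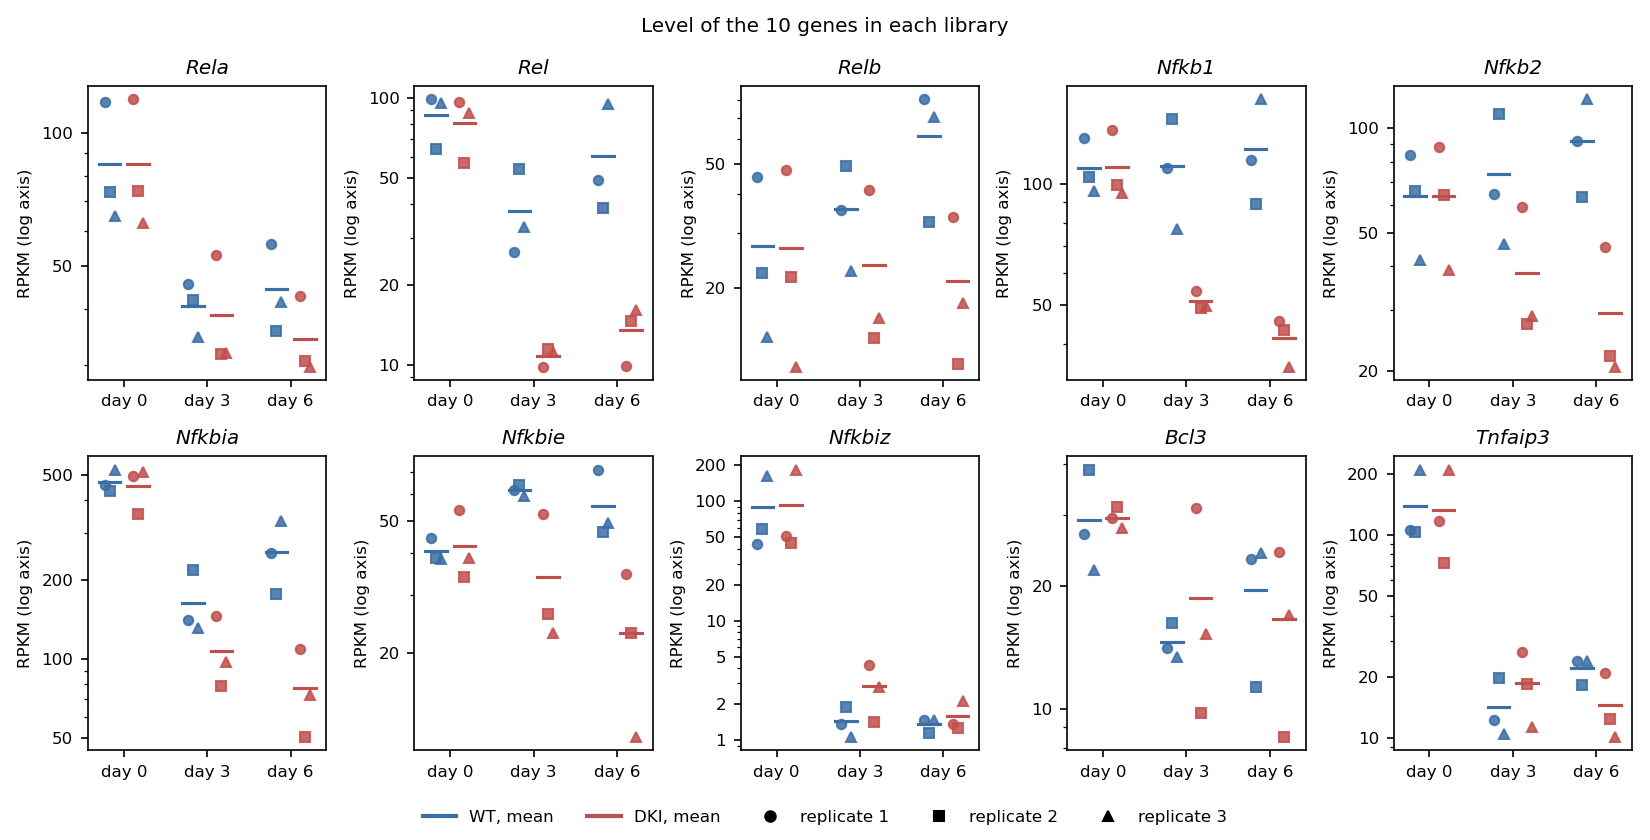
RPKM of the 10 genes (log axis) in each library by day, WT in blue and DKI in red, with the replicate number as marker shape and a bar at the mean of 3 libraries. *Rel* in DKI MDCs lies between 9.85 and 16.1 and in WT MDCs between 26.4 and 94.7, while *Rela* overlaps between the genotypes on every day.

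*Rel*, which encodes c-Rel, showed the largest genotype difference of the 10 genes on day 3 and of the 9 fitted on day 6. On day 6 *Nfkb2* and *Nfkbia* differed more with replicates 2 and 3 alone and without DKI replicate 1. On day 0 it was 98.9, 64.2 and 95.7 RPKM in WT and 96.8, 57.3 and 87.8 in DKI. On day 3 it was 26.4, 54.0 and 32.8 in WT MDCs and 9.85, 11.4 and 11.2 in DKI MDCs, and on day 6 it was 49.4, 38.6 and 94.7 in WT and 9.90, 14.6 and 16.1 in DKI. The groups did not overlap on either culture day, and each DKI library was below its same-numbered WT library. *Rel* was 3.14-fold lower in DKI MDCs on day 3 (log2 difference -1.65 ± 0.26 SE, limma adjusted p = 0.0211) and 4.04-fold lower on day 6 (-2.01 ± 0.36, adjusted p = 0.0296). The call of day 3 was lost without WT replicate 3, DKI replicate 2 or DKI replicate 3 (adjusted p up to 0.0643 over all alternatives). The call of day 6 was lost without WT replicate 1 or 3 or DKI replicate 1 or 3 (adjusted p 0.0623 to 0.0926). *Rel* changed from day 0 to day 3 by -1.21 on the log2 scale in WT (adjusted p = 0.0142) and by -2.76 in DKI (adjusted p = 0.000922). On day 6 it was 0.57 below day 0 in WT, which did not pass the test (adjusted p = 0.203), and DKI cells were at -2.48 (adjusted p = 0.00149). The WT call of day 3 was lost without WT day 3 replicate 3 (adjusted p = 0.0532) and with replicates 2 and 3 alone (adjusted p = 0.0741).

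*Rela*, which encodes p65, the transactivating partner in the most common dimer, did not differ between the genotypes past the threshold. It was 117, 73.4 and 64.9 RPKM in WT and 119, 73.7 and 62.5 in DKI monocytes, 45.5, 41.9 and 34.6 in WT and 52.9, 31.7 and 31.9 in DKI MDCs on day 3, and 56.2, 35.7 and 41.6 in WT and 42.7, 30.6 and 29.7 in DKI MDCs on day 6. The groups overlapped on each day. The difference was -0.10 on day 3 (95% interval -0.68 to 0.48, adjusted p = 0.825) and -0.36 on day 6 (-0.91 to 0.20, adjusted p = 0.351), so that a 1.5-fold decrease lay within both intervals. From day 0, *Rela* changed in WT by -1.010 on day 3 (adjusted p = 0.0135) and -0.90 on day 6 (adjusted p = 0.0289), and in DKI by -1.098 (adjusted p = 0.0358) and -1.25 (adjusted p = 0.0143) on the log2 scale. The WT call of day 3 was lost without WT day 3 replicate 3 (adjusted p = 0.0531). The WT call of day 6 and the DKI call of day 3 were lost with median or quantile scaling, with no filter on low RPKM, and without replicate 1 or 2 of day 0 (adjusted p up to 0.0874 and 0.0982). They were also lost without replicate 2 or 3 of the later day.

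*Relb*, the subunit that pairs with p52 in the alternative pathway, overlapped between the genotypes on both culture days. On day 3 it was 35.7, 49.2 and 22.7 RPKM in WT and 41.2, 13.8 and 15.9 in DKI, where replicate 1 of DKI was within the WT range. On day 6 it was 80.6, 32.6 and 70.7 in WT and 33.9, 11.3 and 17.8 in DKI, and DKI replicate 1 was again the highest of its group and just above WT replicate 2. The difference was -0.68 on day 3 (adjusted p = 0.395) and -1.53 on day 6 (adjusted p = 0.0953). With the replicate block, *Relb* was called lower on day 6 (adjusted p = 0.0293), with every DKI library below its same-numbered WT library. From day 0 to day 6 *Relb* differed by 1.20 in WT (adjusted p = 0.0750) and by -0.24 in DKI (adjusted p = 0.748).

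*Nfkb1*, the p105 and p50 gene, fell in DKI cells, and its changes in WT cells did not pass the test. It was 130, 103.8 and 95.8 RPKM in WT and 136, 99.1 and 94.9 in DKI monocytes. On day 3 it was 109.3, 145 and 77.1 in WT and 54.1, 49.2 and 49.8 in DKI, and on day 6 it was 114.4, 88.9 and 162 in WT and 45.6, 43.2 and 35.1 in DKI. DKI MDCs lay below all WT MDCs on both days and varied less among themselves than WT MDCs. The difference was -1.05 ± 0.25 on day 3, which missed the threshold (adjusted p = 0.0530), and -1.504 ± 0.25 on day 6, 2.84-fold (adjusted p = 0.0268). From day 0 the WT difference was -0.03 on day 3 (95% interval -0.62 to 0.57) and 0.12 on day 6 (-0.46 to 0.70), and the DKI changes were -1.08 (adjusted p = 0.00852) and -1.38 (adjusted p = 0.00379). The call of day 6 was lost without WT replicate 1 or 3 or DKI replicate 1 or 3 (adjusted p 0.0550 to 0.0927).

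*Nfkb2*, the p100 and p52 gene, was 83.6, 65.9 and 41.7 RPKM in WT and 88.4, 64.1 and 38.9 in DKI monocytes. On day 3 it was 64.8, 110 and 46.5 in WT and 59.1, 27.3 and 28.7 in DKI, and on day 6 it was 91.9, 63.4 and 121 in WT and 45.3, 22.0 and 20.6 in DKI. The groups overlapped on day 3 through DKI replicate 1 and did not overlap on day 6. The difference of -0.93 on day 3 did not pass the test (adjusted p = 0.216). On day 6 *Nfkb2* was 3.17-fold lower in DKI MDCs (-1.66 ± 0.37, adjusted p = 0.0476), and this call was lost with the replicate block (adjusted p = 0.0536), with scaling to the median or by quantiles, and without any 1 library of that day except DKI replicate 1 (adjusted p up to 0.154 over all alternatives). DKI MDCs of day 6 were 1.11 below DKI monocytes (adjusted p = 0.0618), and WT MDCs were 0.53 above WT monocytes (adjusted p = 0.205).

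The make-up of the subunit RNA can be set beside its amount. RPKM is per length of gene, so the levels of the 5 subunits can be added. Their sum was 372 ± 89 RPKM in WT and 366.3 ± 105.7 in DKI monocytes (mean ± SD, n = 3), 299 ± 94 and 163 ± 47 on day 3, and 381 ± 116 and 139 ± 33 on day 6. *Rela* made up 20.8% to 24.7% of the sum in WT and 21.2% to 24.4% in DKI monocytes. In WT MDCs its share was 10.5% to 16.2% on day 3 and 8.48% to 14.3% on day 6, whereas in DKI MDCs it was 23.2% to 24.4% and 24.1% to 25.1%. The share of *Rel* went the other way on day 3, with 9.38% to 15.3% in WT and 4.54% to 8.57% in DKI, and the groups overlapped on day 6 (12.6% to 19.3% and 5.58% to 13.5%). With 3 libraries against 3, an exact permutation test of a single share cannot give a two-sided p below 0.1, and the shares are given as a description.

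**Figure D2:**
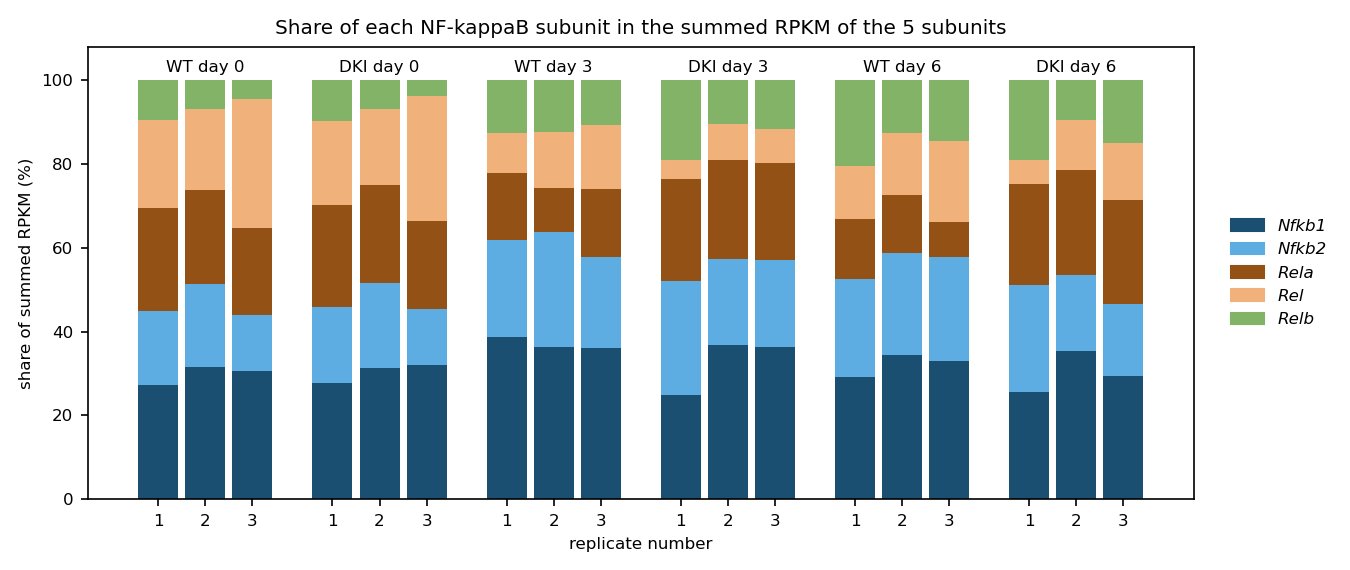
Stacked bars give the share of each NF-kappaB subunit in the summed RPKM of the 5 subunits, in percent, for each of the 18 libraries. The *Rela* share of the 6 DKI MDC libraries lies between 23.2% and 25.1%, above that of the 6 WT MDC libraries (8.48% to 16.2%).

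Of the inhibitors, *Nfkbia*, which encodes IkappaB-alpha, the main inhibitor of RelA and c-Rel dimers and a direct NF-kappaB target, was the most abundant of the 10 genes in every group by its mean. It was 456, 434 and 523 RPKM in WT and 493, 355 and 512 in DKI monocytes. On day 3 it was 141, 217 and 131 in WT and 145, 79.0 and 97.4 in DKI, and on day 6 it was 252, 176 and 336 in WT and 108.9, 50.3 and 72.8 in DKI. DKI replicate 1 was within the WT range on day 3, and the groups were apart on day 6. *Nfkbia* fell in both genotypes with culture, with changes to day 3 of -1.56 in WT (adjusted p = 0.00179) and -2.10 in DKI (adjusted p = 0.00376). The changes from day 0 to day 6 were -0.93 in WT (adjusted p = 0.0193) and -2.59 in DKI (adjusted p = 0.00214). That WT call of day 6 was lost with replicates 2 and 3 alone, without WT day 0 replicate 3 and without WT day 6 replicate 1 (adjusted p up to 0.0862). The genotype difference was -0.61 on day 3 (adjusted p = 0.260) and -1.72 ± 0.35 on day 6, 3.31-fold (adjusted p = 0.0405). The genotype call of day 6 was lost with scaling to the median and without WT replicate 1 or 3 or DKI replicate 2 or 3 (adjusted p up to 0.153 over all alternatives).

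*Nfkbie*, which encodes IkappaB-epsilon, was the only member called higher in any comparison with day 0. It was 44.5, 38.7 and 38.5 RPKM in WT monocytes and 61.9, 63.8 and 59.4 in WT MDCs on day 3, a rise of 0.60 ± 0.13 (1.51-fold, adjusted p = 0.00897), which was lost with all 18 libraries in 1 fit (adjusted p = 0.162). It was also lost without WT day 0 replicate 2 or 3 or WT day 3 replicate 2, where the rise was 0.56 to 0.57 (adjusted p 0.0255 to 0.0391) and under the 1.5-fold limit. DKI cells were at 53.7, 33.9 and 38.6 on day 0, 52.4, 26.2 and 23.1 on day 3, and 34.6, 23.0 and 11.2 on day 6. In WT MDCs of day 6 it was 71.0, 46.2 and 49.3. DKI MDCs lay below all WT MDCs on both days, and the differences of -0.94 (adjusted p = 0.120) and -1.34 (adjusted p = 0.0882) did not pass the test.

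The other 3 feedback genes did not differ by genotype past the threshold. *Nfkbiz* was 1.07 to 1.88 RPKM in WT and 1.42 to 4.28 in DKI MDCs of day 3, and 1.15 to 1.49 and 1.28 to 2.15 on day 6, where its mean was under 2 RPKM in both genotypes and it was not fitted. The day 3 difference was 0.59 (adjusted p = 0.302). *Bcl3*, which encodes a nuclear IkappaB protein that binds p50 and p52, was 14.1, 16.3 and 13.4 in WT and 31.2, 9.76 and 15.3 in DKI on day 3, and 23.4, 11.3 and 24.2 and 24.3, 8.51 and 17.0 on day 6. Its differences of 0.19 (adjusted p = 0.780) and -0.27 (adjusted p = 0.707) did not pass the test, and DKI libraries spread more widely than WT libraries on day 3. *Tnfaip3*, which encodes A20, a ubiquitin-editing enzyme that restrains the pathway, was 12.3, 19.8 and 10.5 in WT and 26.4, 18.5 and 11.4 in DKI on day 3 (0.35, adjusted p = 0.559), and 24.0, 18.1 and 23.9 and 21.0, 12.4 and 10.1 on day 6 (-0.62, adjusted p = 0.196).

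By count, 1 of 10 genes was called lower in DKI MDCs on day 3 and 0 higher, where 4.21% of 9740 genes were called lower and 3.21% higher. On day 6, 4 of the 9 genes fitted were called lower (*Rel*, *Nfkbia*, *Nfkb2* and *Nfkb1*) and 0 higher, against 4.82% and 2.72% of 9842 genes. With the replicate block the count of day 6 was also 4, with *Relb* in place of *Nfkb2*, and 4.41% of genes were called lower. Libraries of the genotypes did not overlap, with DKI lower, for 3 of 10 genes on day 3 (22.9% of all genes) and 5 of 9 on day 6 (26.6%). The median difference of the members was -0.65 on day 3 and -1.504 on day 6, and that of all genes fitted was -0.11 and -0.17. Relative to that median, *Rel* differed by -1.54 on day 3, and on day 6 *Rel* differed by -1.85, *Nfkbia* by -1.56, *Nfkb2* by -1.498 and *Nfkb1* by -1.34. Scaling each library to its median turned the split of all calls on day 6 from 474 lower and 268 higher to 285 and 323. With that scaling 2 members, *Rel* and *Nfkb1*, were called. With replicates 2 and 3 alone, 2 members were called on day 3, *Rel* (-1.81, adjusted p = 0.0464) and *Nfkbie* (-1.29, adjusted p = 0.0286). On day 6, 0 were called with replicates 2 and 3 alone, where *Rel* was at -1.91 (adjusted p = 0.172), *Nfkbia* at -1.99 (adjusted p = 0.152), *Nfkb2* at -1.99 (adjusted p = 0.134) and *Nfkb1* at -1.60 (adjusted p = 0.164), and 0 were called with no filter on low RPKM. The genotype differences of the 3 days rest on separate libraries, but same-numbered libraries of days 3 and 6 deviated together (correlation over genes 0.135 to 0.669 in WT and 0.315 to 0.735 in DKI), so the differences of these days are not independent.

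**Figure D3:**
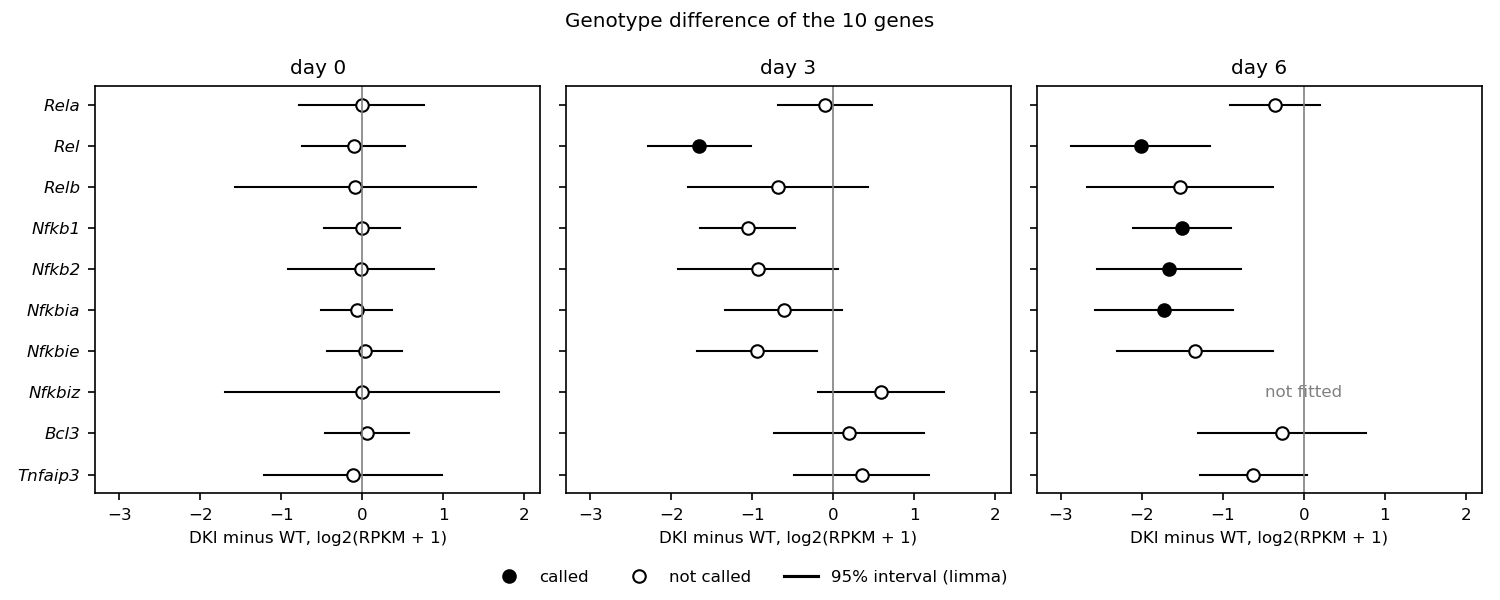
DKI minus WT difference in log2(RPKM + 1) of each gene on days 0, 3 and 6, with the 95% interval from limma; filled points were called (adjusted p under 0.05 and fold above 1.5). On day 0 all points lie between -0.11 and 0.05, and on day 6 all 9 fitted genes lie below 0, with 4 of them called.

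Most of the feedback genes were lower in culture than on day 0 in both genotypes. *Nfkbiz* fell from 43.9 to 164 RPKM in WT monocytes to 1.07 to 1.88 on day 3, a change of -4.98 ± 0.46 (adjusted p = 0.000369), and in DKI cells of -4.38 (adjusted p = 0.00335). *Tnfaip3*, at 103 to 208 RPKM in WT monocytes, changed by -3.17 on day 3 (adjusted p = 0.000621) and -2.53 on day 6 (adjusted p = 0.000678), and in DKI cells by -2.70 (adjusted p = 0.00662) and -3.04 (adjusted p = 0.00328). The MDC libraries of these genes did not overlap those of day 0 in either genotype. *Bcl3* changed in WT on day 3 by -0.92 (adjusted p = 0.0130), a call lost with all 18 libraries in 1 fit (adjusted p = 0.0666), with replicates 2 and 3 alone (adjusted p = 0.0575) and without WT day 3 replicate 3 (adjusted p = 0.0506). In DKI cells the change of -0.78 did not pass (adjusted p = 0.152). In WT cells 6 of the 10 genes were called lower on day 3 and 1 higher, where 22.8% of 9938 genes were called lower and 20.3% higher. In WT cells on day 6, 4 were called lower (background 23.7%) and 0 higher (21.4%). In DKI cells 6 were called lower on day 3 (background 21.1%) and 6 on day 6 (26%), and 0 higher (13.1% and 14.1%). *Nfkb1* was called among the DKI changes on both days and not among the WT changes. The comparisons of days 3 and 6 share the day 0 libraries, so their agreement is not independent. The median change of all genes was -0.16 in DKI on day 3 and -0.23 on day 6, and -0.05 and -0.07 in WT. After scaling to the median, calls in WT cells went from 2270 lower and 2013 higher to 2000 and 2267 on day 3, and from 2388 and 2157 to 2087 and 2404 on day 6. Calls in DKI cells went from 2097 lower and 1297 higher to 1622 and 1743 on day 3, and from 2600 and 1407 to 1741 and 1987 on day 6.

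Between day 3 and day 6, limma called 0 of the members in WT and 0 in DKI cells. At an unadjusted p under 0.05 there were 1 of 9 in WT and 0 of 10 in DKI, against 7.51% and 0.975% of all genes, of which 0% were called in both.

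**Figure D4:**
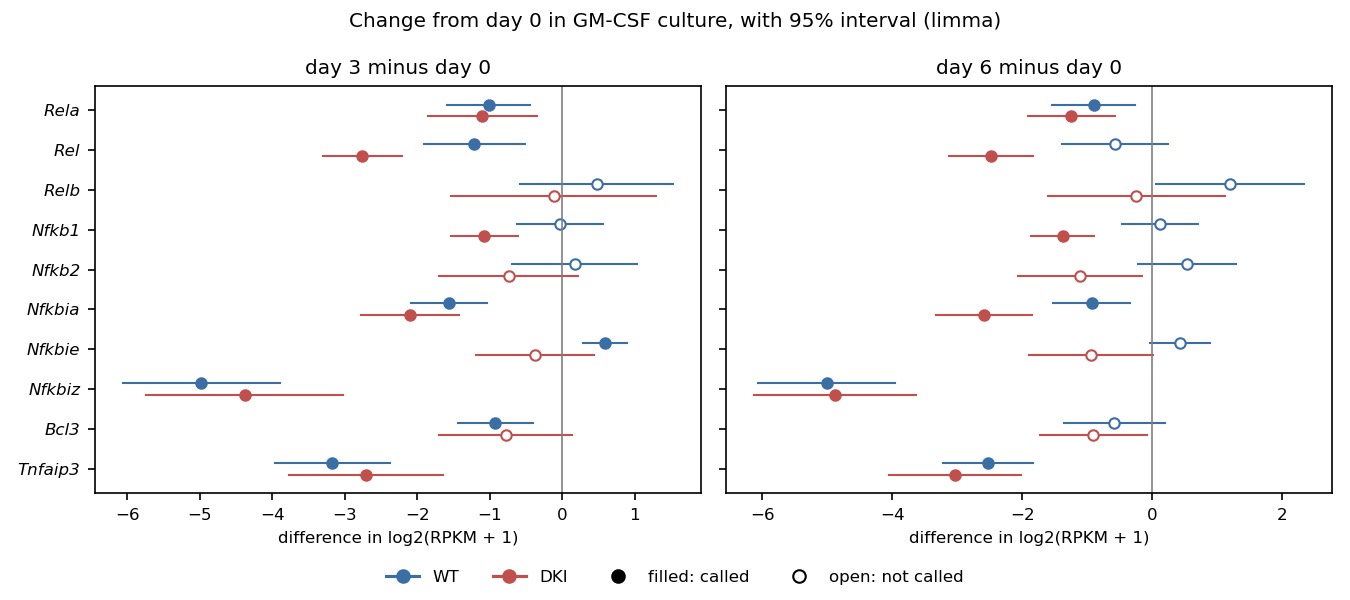
Change in log2(RPKM + 1) from day 0 to day 3 and day 6 for each gene in WT (blue) and DKI (red), with the 95% interval from limma; filled points were called. *Nfkbiz* changed by -5.01 to -4.38 in both genotypes and days. The DKI points lie below the WT points for 7 of 10 genes on day 3 and 9 of 10 on day 6, *Nfkb1* and *Rel* among them on both days.

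Whether the change from day 0 differed between the genotypes was tested as an interaction over 12 libraries. From day 0 to day 6, 1 of 10 genes was called, *Nfkb1*, whose interaction was -1.499 ± 0.33 (adjusted p = 0.0373), where 1.9% of 10353 genes were called lower and 0.898% higher. This call was lost with median or quantile scaling, with no filter, with replicates 2 and 3 alone, and without any 1 of the 12 libraries except WT or DKI day 6 replicate 2 (adjusted p up to 0.208 over these). *Rel* (-1.91, adjusted p = 0.0611), *Nfkbia* (-1.65, adjusted p = 0.0660), *Nfkb2* (-1.65, adjusted p = 0.150), *Relb* (-1.45, adjusted p = 0.420) and *Nfkbie* (-1.37, adjusted p = 0.160) did not pass. With the replicate number as 1 block over both days, *Rel* (adjusted p = 0.0352) and *Nfkbia* (adjusted p = 0.0269) were called as well, against 2.3% of genes called lower. Same-numbered libraries deviated together within a day but not between day 0 and the later days, so a block of the number within each day was added after the data had been seen. With it, 6 of 10 genes were called lower (*Nfkb1*, *Nfkb2*, *Rel*, *Relb*, *Nfkbia* and *Nfkbie*, adjusted p between 0.0119 and 0.0374), against 8.65% of genes. From day 0 to day 3, 0 members were called (3 had an unadjusted p under 0.05, as had 15.7% of 10212 genes, of which 1.7% were called lower and 1.2% higher), with *Rel* at -1.55 (adjusted p = 0.0681). *Rel* (adjusted p = 0.0126) and *Nfkb1* (adjusted p = 0.0460) were called with the block within each day, against 5.58% of genes. From day 3 to day 6, 0 members and 0% of genes were called in each of these fits, and 1 member and 0.891% of genes had an unadjusted p under 0.05.

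The genes around the 10 members were followed in lists of receptors, kinases and adaptors, other inhibitors and ubiquitin enzymes, and target genes. These lists were chosen with earlier results of these data known, so their counts are a description. Of 8 receptors, 0 were called lower on day 3 or day 6 and 1 was called higher on both days (background 3.21% and 2.72%), *Tnfrsf1b*, the TNF receptor 2. It was 40.8, 52.4 and 63.6 RPKM in WT and 104.98, 118 and 187 in DKI MDCs on day 3 (1.35, adjusted p = 0.0401), and 78.7, 73.1 and 79.5 and 120, 188 and 155 on day 6 (0.97, adjusted p = 0.0410, lost with the replicate block at adjusted p = 0.0587). The DKI libraries lay above all WT libraries on both days.

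Of 25 kinases and adaptors, 1 was called lower on day 3 and 3 on day 6 (background 4.21% and 4.82%), with 0 called higher. The share of day 3 was near the background. With the replicate block, 2 were called lower on day 3 (background 2.96%), with *Ripk2* added (-0.999, adjusted p = 0.0342), and 2 on day 6 (background 4.41%). *Map3k14* encodes NIK, the kinase that starts processing of p100 in the alternative pathway. It was 21.0, 57.3 and 22.2 RPKM in WT and 6.14, 4.89 and 5.42 in DKI MDCs on day 3, and 35.2, 29.6 and 60.1 and 5.72, 8.21 and 7.69 on day 6. The differences were -2.26 (adjusted p = 0.0239) and -2.32 (adjusted p = 0.0136) on the log2 scale, and WT replicate 2 on day 3 and replicate 3 on day 6 were its highest libraries, as for *Rel*, *Nfkb1* and *Nfkb2*. *Traf1*, an adaptor of TNF receptors, was 68.3, 49.97 and 100.2 in WT and 17.96, 16.8 and 15.7 in DKI MDCs on day 6 (-1.995, adjusted p = 0.0158). *Irak2*, a kinase of Toll-like receptor signalling, differed by -0.67 on day 6 (adjusted p = 0.0410), a call lost with the block (adjusted p = 0.0591). The genes of the IkappaB kinase complex that were analysed, *Ikbkb* and *Chuk*, were not among those called. Of 19 other inhibitors and ubiquitin enzymes, 0 were called on either day, and 1 (*Birc2*, adjusted p = 0.0328) was called lower on day 6 with the block.

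Among the targets, the study names *Ccl22*, *Ccr7*, *Cd80* and *Cd83* as dependent on STAT5 tetramers in these data, and the list was chosen with such results known. Of 32 target genes fitted on day 3, 6 were called lower and 0 higher, against 4.21% and 3.21% of all genes. Of 30 on day 6, 7 were called lower and 0 higher, against 4.82% and 2.72%. With the replicate block, 8 were called lower on day 3 (background 2.96%), with *Fscn1* (adjusted p = 0.0502 without the block and 0.0216 with it) and *Nlrp3* (0.0775 and 0.0316) added. On day 6 the block gave 7 lower (4.41%), with *Tnf* (0.222 and 0.0454) in place of *Gadd45b* (0.0433 and 0.0551), and 1 higher (2.9%), *Ier3* (0.104 and 0.0447). *Ccl22*, a chemokine made by mature dendritic cells, was 657, 2781 and 413 RPKM in WT and 50.9, 58.7 and 19.2 in DKI MDCs on day 3 (-4.52, adjusted p = 0.0244) and differed by -4.33 on day 6 (adjusted p = 0.00818). *Ccr7*, the receptor that guides dendritic cells to lymph nodes, was 118, 229 and 60.8 in WT and 16.9, 4.36 and 0.601 in DKI MDCs on day 3 (-4.47, adjusted p = 0.0386) and differed by -3.77 on day 6 (adjusted p = 0.0239). *Cd83*, a surface marker of mature dendritic cells, differed by -3.25 on day 3 (adjusted p = 0.0135). *Fscn1*, which encodes the actin-bundling protein fascin, was 368, 173 and 377 in WT and 25.9, 13.2 and 29.1 in DKI MDCs on day 6 (-3.68, adjusted p = 0.0107). *Bcl2a1d*, *Cd80* and *Ltb* were the others called on day 3, and *Bcl2a1d*, *Cd80*, *Cd83* and *Gadd45b* on day 6. The median of the list was 0.32 on day 3 and -0.40 on day 6, against -0.11 and -0.17 for all genes, so the calls on day 3 went in the direction opposite to the list median. The dendritic cell marker sums given above were lower in DKI than in WT MDCs on both days, as these called genes were. The macrophage marker sums went the other way, with an overlap of the genotypes on day 6. The part of these markers was not tested.

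**Figure D5:**
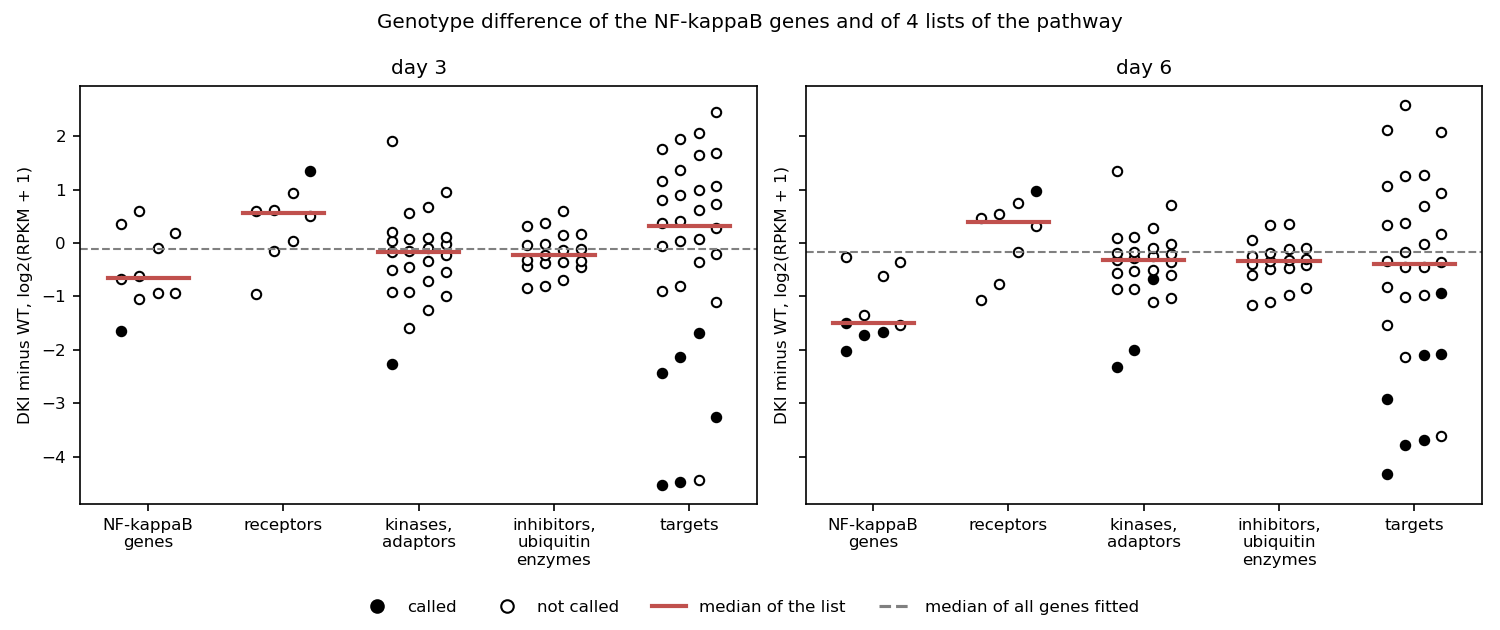
DKI minus WT difference in log2(RPKM + 1) of each gene on days 3 and 6 for the 10 NF-kappaB genes and the lists of receptors, kinases and adaptors, inhibitors and ubiquitin enzymes, and targets; filled points were called, red bars are list medians and the dashed line is the median of all genes fitted. Among the targets the called genes lie between -4.52 and -0.93, while the list median is 0.32 on day 3 and -0.40 on day 6.

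In WT cells on day 3, 10 of 32 targets were called higher and 8 lower (background 20.3% and 22.8%), the share of lower calls near the background. *Ccl22* (9.54), *Ccr7* (6.39) and *Fscn1* (6.20) rose most on the log2 scale, and *Ptgs2*, the inducible cyclooxygenase, changed by -5.64, *Cxcl2* by -3.53 and *Il1b* by -3.41. In DKI cells on day 3, 4 of 33 were called higher and 5 lower (background 13.1% and 21.1%), shares that are no more than the background. *Ccl22* rose by 5.09, *Bcl2a1d* by 2.32 and *Ltb* by 2.24, and *Ptgs2* changed by -4.52, *Cd83* by -3.50 and *Tnf* by -3.12. Of the 19 other inhibitors and ubiquitin enzymes, 3 were called lower and 1 higher on day 3 in each genotype, shares below the background. *Nfkbid*, which encodes the nuclear IkappaB-NS, changed by -3.76 in WT and -3.73 in DKI cells on day 3, and *Zc3h12a*, which encodes an RNase called regnase, by -1.96 and -1.81. The gene called higher in both was *Pdlim2* (1.75, adjusted p = 0.00301, in WT and 0.95, adjusted p = 0.0376, in DKI). Of 25 kinases and adaptors, 8 were called lower and 2 higher in WT cells on day 3 (background 22.8% and 20.3%), and 10 lower and 0 higher in DKI cells (21.1% and 13.1%). The 2 called higher in WT cells were *Map3k14* (1.33, adjusted p = 0.0425) and *Traf5* (1.84, adjusted p = 0.00546), and *Map3k14* was among the 10 called lower in DKI cells. In the test of the difference between the genotypes in this change, 0 of 25 were called from day 0 to day 3, *Map3k14* and *Traf5* included. With the replicate number as 1 block over both days, 1 of 25 was called lower, where 235 of 10212 genes were called lower. For *Map3k14* the genotype by time difference was -2.53 from day 0 to day 6 (adjusted p = 0.0355).

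The genes whose levels followed the called members most closely over the 18 libraries, among 10417 genes, were ranked by Pearson's r of log2(RPKM + 1). For *Rel* they were *Gpr132* (0.954), *Pmaip1* (0.952) and *Rbm17* (0.951), for *Nfkb1* *Supt6* (0.939), *Ankrd44* (0.931) and *Stk4* (0.923), for *Nfkb2* *Psd* (0.904), *Cd86* (0.895) and *Csnk1d* (0.893), and for *Nfkbia* *Supt5* (0.959), *Traf2* (0.959) and *Rbbp8* (0.956). Among the members themselves, *Nfkbiz* and *Tnfaip3* were the closest pair (0.961), followed by *Rel* and *Nfkbia* (0.904) and *Nfkb1* and *Nfkb2* (0.886), and *Relb* and *Nfkbiz* were the farthest apart (-0.27). These values describe 18 libraries that share 6 groups, so that they mix differences between groups with those within them.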

How the data were processed

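RNA-seq libraries were made by the authors from total RNA of the 18 samples. Single-end reads were mapped by the authors to mm10 with Subread and counted on RefSeq genes with featureCounts, and the authors deposited RPKM values. Versions, strandedness and the handling of reads shared by several genes are not given in the sources used here. All 18 columns were used, and 0 columns were left unmapped. Groups follow the labels.

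Levels were analysed as log2(RPKM + 1) in R 4.3.3 with limma 3.58.1 (lmFit, and eBayes with trend) within the groups compared. A gene was fitted if either group, or any group of an interaction, averaged over 2 RPKM. Calls required a Benjamini-Hochberg adjusted p under 0.05 over all genes fitted and a fold change above 1.5. A fold change on the log2(RPKM + 1) scale understates the change of low genes. RPKM is relative to all mapped reads, so a few abundant genes can shift all others. Where 3 libraries of a group differ only in technical handling, p-values measure that spread.

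The members, the pathway lists and the marker lists were chosen with earlier results of these data known. Named genes are the 10 members, up to 3 called genes per list, direction and comparison, and the 3 genes most correlated with each member called between the genotypes. *Bcl2a1d*, *Cd80*, *Cd83*, *Gadd45b*, *Ltb*, *Ikbkb*, *Chuk*, *Ripk2*, *Birc2*, *Nlrp3* and *Ier3* were also named after their values were seen. *Ikbkg*, *Irak1* and *Tab3* of the lists were not analysed here.

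Same-numbered WT and DKI libraries (the numbers come from the labels) had correlated deviations from their group means, between 0.687 and 0.868 on day 0, 0.156 and 0.364 on day 3, and 0.336 and 0.412 on day 6. A fit with a block on the number was therefore run as an alternative. The main fits had no block, so p-values are unpaired unless the block is named. The year in the library names differs for replicate 1 of days 3 and 6. Depth was estimated from 1124 single-exon receptor genes, and a check on 62 further low values found 60 (96.8%) at a whole number of reads within 0.05. It is approximate, so no test on counts was run. Symbols and positions come from RefSeq, which held 20082 of the identifiers and not 216. Steps were tested on simulated data. Alternatives were median and quantile scaling, a pseudocount of 0.1, no filter, all 18 libraries in 1 fit, no trend, the block, replicates 2 and 3 alone, and leaving out each library. Figures were drawn with matplotlib 3.10.9 in Python 3.11.15.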

Additional observations from a re-analysis of the deposited data

Results flagged for a closer look

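*Nfkb1* was set apart by a test of the difference between the genotypes in their change from day 0 to day 6. Its level was 109.8 ± 17.8 RPKM in WT monocytes and 121.9 ± 37.3 in WT MDCs of day 6, and 110.0 ± 22.5 and 41.3 ± 5.49 in the DKI groups (mean ± SD, n = 3). The change differed between DKI and WT by -1.499 on the log2 scale (limma adjusted p = 0.0373). All 3 DKI libraries of day 6 were below all 3 WT libraries. The call was lost in 14 of 21 alternatives, with adjusted p up to 0.208, and was kept with the replicate block (adjusted p = 0.0425) and with the block within each day (adjusted p = 0.0277). The direction was the same in all of them.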

How the results depend on the processing

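Over the 10 genes and 12 comparisons, 1862 results were recomputed under alternatives. The side of the threshold was kept in 1755, 73 lost the call, 34 gained it and 0 called values changed sign. Among the 1755, 68 values that were not called changed sign. On day 3 the count of members called (1) became 2 with all 18 libraries in 1 fit and 2 with replicates 2 and 3 alone. On day 6 (4) it became 2 with median scaling, 0 with no filter and 0 with replicates 2 and 3 alone, where each genotype had 2 libraries. For the interaction from day 0 to day 3 (0) it became 1 with replicates 2 and 3 alone and 2 with the replicate block within each day. For that from day 0 to day 6 (1) it became 0 with median scaling, 0 with quantile scaling, 0 with no filter and 0 with replicates 2 and 3 alone, 2 with all 18 libraries, 3 with the replicate block and 6 with the block within each day. Without each library in turn, the counts spanned 0 to 2 for the genotypes on day 3 and 0 to 3 for those on day 6. They ranged from 4 to 7 for WT day 3 against day 0, 3 to 4 for WT day 6, 5 to 7 for DKI day 3 and 6 to 9 for DKI day 6, and from 0 to 1 and 0 to 3 for the interactions from day 0 to days 3 and 6. They stayed at 0 for day 0 and for the comparisons of day 6 with day 3. All calls of day 6 were lost without WT replicate 1, WT replicate 3 or DKI replicate 3, and all calls of day 3 without WT replicate 3, DKI replicate 2 or DKI replicate 3. Fewer samples leave fewer degrees of freedom, and otherwise the cause was not tested.

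Over all genes, the calls of day 3 (410 lower, 313 higher) became 205 and 153 with no filter, 795 and 564 with all 18 libraries, and 206 and 163 with replicates 2 and 3 alone. Those of day 6 (474 and 268) became 127 and 60, 1054 and 519, and 12 and 26. The interaction from day 0 to day 6 (197 and 93) gave 150 and 126 with median scaling, 27 and 34 with replicates 2 and 3 alone, and 896 and 505 with the block within each day. The replicate block moved *Relb* and *Nfkb2* on day 6 across the threshold in opposite directions, added *Rel* and *Nfkbia* to the interaction and, where numbers did not pair, added *Nfkb2* for DKI day 6 against day 0 (adjusted p = 0.0229), and it changed no other call of a member. *Nfkbiz* on day 6 was under the RPKM limit in both genotypes, so that its genotype difference has no value here.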

Other observations

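Within each MDC group, most members had their highest level in 1 library. The shares of all genes are given over those averaging above 2 RPKM in the group, and co-movement was not tested. In WT MDCs of day 3, replicate 2 had the highest level of 9 of the 10 genes (42.9% of all genes) and replicate 3 the lowest of 9 (39.3%). On day 6, WT replicate 2 had the lowest level of all 10 (26% of all genes), and replicate 3 the highest of 6 (31%), which were *Nfkb1*, *Nfkb2*, *Rel*, *Nfkbia*, *Nfkbiz* and *Bcl3*. *Ccr7* was highest in the same libraries, at 229 RPKM in WT day 3 replicate 2 and 824 in WT day 6 replicate 3. Neutrophil marker sums were highest of the WT day 3 group in the first of these (4483) and lowest of the WT day 6 group in the second (37.2). Macrophage marker sums were the lowest of their groups in both (270 against 719 and 773, and 364 against 537 and 1755), as were monocyte marker sums (1531 and 2833). Dendritic cell marker sums were in the middle of their group in the first (7285) and highest in the second (7691), and *Ccl17* made up most of both (5758 and 6080). In the first library *Ccl17*, *Flt3*, *Zbtb46* and *Irf4* were highest of the group, *Cd209a*, *Mgl2* and *Dpp4* lowest, and *Itgax* in the middle.

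In DKI MDCs, replicate 1 had the highest level of 9 of the 10 genes on day 3 (25.9% of all genes) and of 8 on day 6 (29.6%), and *Rel* was an exception on both days, as it was lowest there (9.85 and 9.90 RPKM). The same library of day 3 stood apart in *Ly6c2*, a marker of classical monocytes, at 775 RPKM against 49.5 and 73.8, while *Ccr2* (32.5 against 105.9 and 395) and *Itgam* (526 against 778 and 855) of the same marker list were lowest there. Its macrophage marker sum was the highest of its group (6098), as was that of replicate 1 on day 6 (7184). The day 3 library also stood apart in *Ccl5*, a chemokine of the target list that was chosen here after its values were seen, at 1773 RPKM against 14.6 and 7.42. On day 6 *Ccl5* was 539 in DKI replicate 1 against 20.1 and 135, and 1020, 1206 and 2285 in WT MDCs.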
